A study of Mus musculus with 36 samples.

Results

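Pax3, Zic2, Zic5, Grhl2, Grhl3, Tfap2a, Cited2, Twist1, Alx1 and Cecr2 are genes whose loss is known to disturb closure of the cranial neural tube in the mouse. They were taken as a named set of 10 genes, out of 20807 autosomal protein-coding genes, and 5-methylcytosine (5mC) was read at the CpGs in their mm10 gene bodies and in 2 kb on each side. Each locus was divided into the promoter (2000 bp before to 1000 bp after the gene start), the body (the rest of the gene) and the 3′ flank (2 kb after the gene end).

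The libraries came from single brains of E11.5 embryos of the 129S6.Cg strain, dissected from forebrain to hindbrain above the otic vesicle, and were made by reduced representation bisulfite sequencing after MspI and TaqI digestion with oxidation before bisulfite (oxBS), so that 5-hydroxymethylcytosine is not counted as methylation. The embryos were Tet1 wild type (WT), heterozygous (HET) or knockout (KO) for the Tet1tm1Koh allele, a germline insertion at the first coding ATG that is carried by every cell and not by a chosen cell type. All embryos came from HET by HET matings, from dams fed for at least 4 weeks a diet with 30, 3 or 0.1 ppm folic acid (FA), and all 3 diets held 1% succinyl sulfathiazole, an antibiotic that lowers folate made by gut bacteria. The titles mark each embryo as normal (norm), as having a neural tube defect (NTD) or as inHB, an abbreviation that the titles do not spell out and that the study's sample list gives as a brain malformation.

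Of 36 embryos from 12 litters, 4 per diet, 35 were used here, since the study left out HET replicate 2 of the 0.1 ppm diet, the shallowest library. This left 9 WT, 10 HET and 16 KO embryos, the KO embryos being 7 norm, 5 NTD and 4 inHB. On the 30 ppm diet there were 3 WT, 5 HET and 6 KO embryos, on 3 ppm 4, 3 and 5, and on 0.1 ppm 2, 2 and 5. The 36 libraries held 23.2 to 197 M CpG calls, the lowest being the one left out, and those used held at least 25.6 M. Each value is a methylation level, the percentage of reads at the CpGs of a region that were methylated. The p-values rest on the spread between embryos, moderated toward that of other regions and not taken below counting error. A level is an average over all cells of a brain, so a change within cells and a change in the share of cell types cannot be told apart. No expression was measured in these libraries, so the tissue label was not checked against markers.

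The targeted gene was read first. At the CpG inside Tet1 with the largest difference between KO and WT (chromosome 10, position 62884019, in an intron), which was chosen on these values, 7 WT embryos had levels of 0% to 7.32%, 10 HET embryos 8.33% to 69.2% and 15 KO embryos 69.6% to 100%. The other 3 libraries lay outside these ranges for their labelled genotype and inside that of HET, the ranges being those of the embryos without them. The HET range fills nearly the whole gap between WT and KO. Almost any library set apart for lying in that gap would therefore fall inside it. The library labelled KO 30 ppm replicate 1 had 45.0% (Wilson 95% interval 25.8 to 65.8, 20 reads), WT 30 ppm replicate 2 had 36.36% (22.2 to 53.4, 33 reads) and WT 0.1 ppm replicate 2 had 40.0% (19.8 to 64.3, 15 reads). The study's own sample list gives KO 30 ppm replicate 1 as HET, against its GEO title, so its counts of KO and HET embryos on that diet differ from those used here. All 3 libraries were kept under their labels, and results that rest on them are also given without them.

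The neural tube closes when the folds at the edge of the neural plate rise, bend and fuse at the midline. The 10 genes act in different tissues of the closing head. Grhl2, Grhl3 and Tfap2a encode transcription factors of the surface ectoderm that borders the neural folds, Tfap2a also acting in the neural crest. Pax3, Zic2 and Zic5 encode transcription factors of the dorsal neural tube and the neural crest. Twist1 and Alx1 encode transcription factors of the head mesenchyme, Cited2 a transcriptional co-activator that binds CBP and p300, and Cecr2 a subunit of a chromatin remodeling complex. Promoters of developmental genes of this kind commonly lie in CpG islands that are free of methylation, while gene bodies are commonly methylated, and TET1 oxidizes 5mC as a step toward its removal.

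The stretches below carry the measurements that the results turn on. They were read from GRCm38.p6, 5′ to 3′ on the strand of the gene, and capitals mark the CpGs whose levels were used in all 35 libraries. The first 3 come from the 3 tiles of the Grhl3 body that were called between KO and WT, and hold all 5 CpGs of the tile centred 21.1 kb from the start, 5 of the 8 of that at 8.1 kb and 6 of the 7 of that at 6.1 kb. The Zic5 pair comes from 1 intron of Zic5, where neighboring CpGs had different levels, and the Zic2 stretch shows a dense, unmethylated promoter.
Grhl3 intron 9 and exon 10, chr4:135552039-135552206, minus strand: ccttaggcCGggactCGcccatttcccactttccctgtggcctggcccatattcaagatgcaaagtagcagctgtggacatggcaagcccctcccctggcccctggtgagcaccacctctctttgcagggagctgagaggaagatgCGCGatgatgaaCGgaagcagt
Grhl3 intron 1, 8.51 to 8.61 kb from the start, chr4:135565008-135565130, minus strand: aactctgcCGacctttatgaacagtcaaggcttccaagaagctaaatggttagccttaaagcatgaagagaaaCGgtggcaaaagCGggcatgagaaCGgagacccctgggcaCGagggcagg
Grhl3 intron 1, 6.42 to 6.61 kb from the start, chr4:135567014-135567219, minus strand: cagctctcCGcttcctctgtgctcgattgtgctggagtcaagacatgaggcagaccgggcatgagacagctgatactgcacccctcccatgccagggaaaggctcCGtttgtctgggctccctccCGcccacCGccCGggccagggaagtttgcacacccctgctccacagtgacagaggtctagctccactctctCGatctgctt
Zic5 intron, last 4 CpGs of the tile, chr14:122462208-122462259, minus strand: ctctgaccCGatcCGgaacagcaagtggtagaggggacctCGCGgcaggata
Zic5 intron, other 9 CpGs, chr14:122462900-122463005, minus strand: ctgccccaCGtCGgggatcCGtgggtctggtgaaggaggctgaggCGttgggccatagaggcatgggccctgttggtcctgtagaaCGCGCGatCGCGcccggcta
Zic2 promoter, chr14:122475124-122475271, plus strand: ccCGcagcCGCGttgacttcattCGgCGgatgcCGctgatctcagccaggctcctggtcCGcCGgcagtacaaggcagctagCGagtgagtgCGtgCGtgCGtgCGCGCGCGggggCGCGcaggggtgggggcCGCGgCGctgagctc

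Of the 6923 CpGs that the genome holds in the 10 loci, 2451 were covered by at least 5 reads in at least 1 library and 1009 in all 35. In mm10 (GENCODE) the genes on the plus strand are Cecr2 (chr6:120666369-120771190), Cited2 (chr10:17723218-17725674), Twist1 (chr12:33957671-33959829), Zic2 (chr14:122475435-122479852) and Grhl2 (chr15:37233036-37363569), and those on the minus strand Pax3 (chr1:78101267-78197134), Grhl3 (chr4:135541888-135573630), Alx1 (chr10:102998707-103030215), Tfap2a (chr13:40715302-40738376) and Zic5 (chr14:122456795-122465677). The 10 genes have 30 regions. Of these, 10 held fewer than 3 such CpGs (8 of them none), 14 had enough CpGs but a standard deviation over the KO and WT embryos under 2 points, and 6, in 5 genes, were tested between KO and WT over all diets. The 6 were the bodies of Pax3, Grhl2, Grhl3, Alx1 and Cecr2 and the 3′ flank of Grhl3. The 14 untested regions were all 10 promoters and the bodies of Zic2, Zic5, Tfap2a and Cited2. The body of Twist1 had no usable CpG among its 24 in the genome.

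All 10 promoters had low levels in WT brain. Mean levels in WT were 0.498% at Pax3, 0.617% at Zic2, 0.616% at Zic5, 0.774% at Grhl2, 1.09% at Tfap2a, 0.638% at Cited2, 0.659% at Twist1, 1.28% at Alx1 and 0.663% at Cecr2, over 20 to 141 CpGs each, and 4.59% at Grhl3 over 21 CpGs. Below 2% lay 9 of the 10, against 71.9% of the 13072 promoters measured, and the median of the 10 was 0.661% against 0.781% for all. Zic2, Zic5, Tfap2a and Cited2 also had low levels across the body, 0.756%, 0.887%, 1.23% and 0.675% in WT. These 4 of the 9 measured bodies lay below 2%, against 4.67% of the 12442 bodies measured. In the printed Zic2 stretch, 311 to 164 bp before the gene start, the 21 CpGs had WT means of 0% to 2.54%, HET means of 0% to 1.52% and KO means of 0% to 1.35%.

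The other bodies spanned most of the scale. In WT, mean levels were 14.5% at Alx1, 19.2% at Pax3, 40.8% at Grhl2, 65.4% at Grhl3 and 86.4% at Cecr2, with a median of 14.5% over the 9 members against 78.9% over all bodies. These levels rest on a small part of the CpGs of each body. The usable CpGs were 23 of 291 at Alx1, 52 of 1091 at Pax3 and 85 of 1558 at Grhl2. At Grhl3 they were 37 of 496 and at Cecr2 11 of 674. SDs over the 9 WT embryos were 2.76 to 3.26 points in these 5 bodies, so each gene lay apart from its neighbors in this order except Alx1 and Pax3, whose ranges over embryos, 10.0% to 19.8% and 14.9% to 23.6%, overlapped. The levels differ in what they average, since the Pax3, Alx1 and Grhl2 bodies hold unmethylated as well as methylated CpGs. In Grhl2, 74 CpGs of promoter, body and flank lay under 10% in HET embryos, 5 between 10% and 80%, and 35 at 80% or more.

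The plot of levels by genotype shows the 10 promoters and 9 bodies with enough CpGs.

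**Figure D1:**
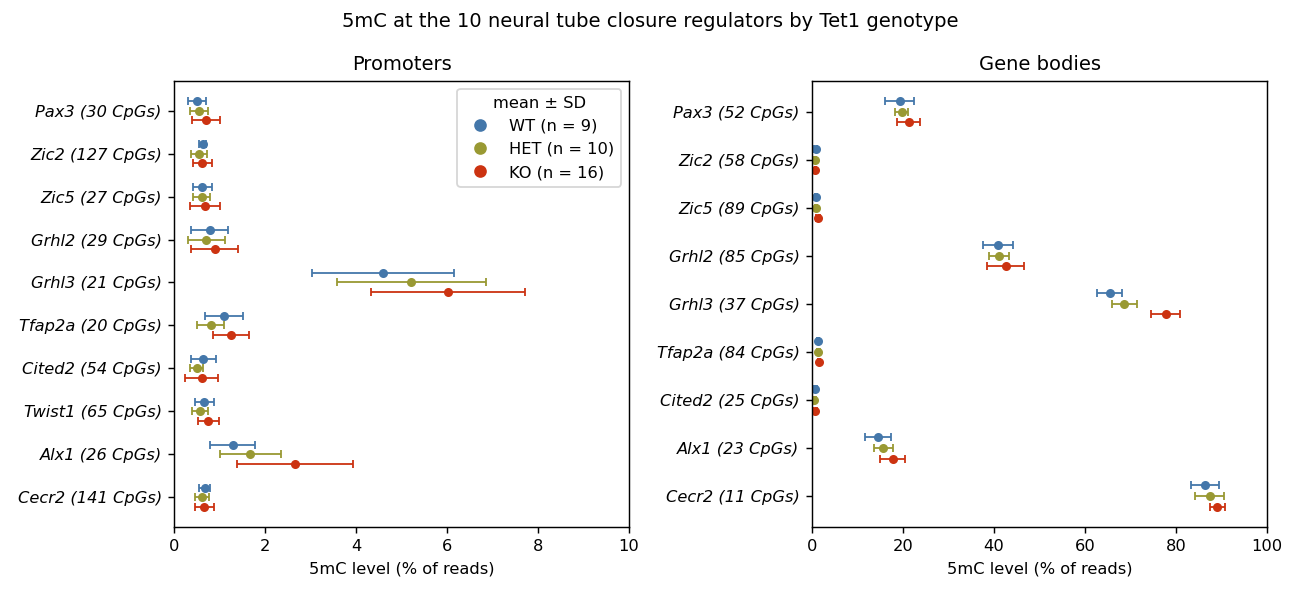
Mean methylation level (% of reads) ± SD over 9 WT, 10 HET and 16 KO embryos of each promoter (left, axis to 10%) and body (right, axis to 100%) with at least 3 usable CpGs. All promoters lie low and the bodies are spread over the scale, with Grhl3 at 65.4% in WT and 77.7% in KO.

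In KO brains the Grhl3 body rose and the other tested regions were not called. Calls required a difference of at least 5 points together with an adjusted p under 0.05 by a quasi-binomial test of methylated and unmethylated reads with diet as a covariate and Benjamini-Hochberg adjustment over all regions tested. Of the 6 member regions 1 was called, higher in KO, against 33.3% of 14168 regions of all genes. Of those 4714 regions 4705 were higher in KO, and the median difference was 3.58 points over all regions and 2.35 points over the 6.

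Grhl3 encodes a grainyhead-like factor of the surface ectoderm whose loss gives spina bifida, with cranial defects in some embryos. Its body level rested on 37 CpGs and 501 to 3779 reads per library. On 30 ppm FA the WT embryos had 64.1%, 66.0% and 70.5%, the HET embryos 65.6%, 65.8%, 66.4%, 66.7% and 70.7%, and the KO embryos a lowest of 67.4%, a median of 78.6% and a highest of 80.2%. On 3 ppm the WT embryos had 63.1%, 64.7%, 66.5% and 68.1%, the HET embryos 67.2%, 68.2% and 70.9%, and the KO embryos 76.0%, 77.4%, 77.5%, 79.4% and 80.1%. On 0.1 ppm the WT embryos had 61.2% and 64.4%, the HET embryos 71.3% and 73.7%, and the KO embryos 76.8%, 78.6%, 78.9%, 79.0% and 81.1%. KO embryos lay above every WT embryo of all diets in 15 of 16 cases. The exception, at 67.4%, was KO 30 ppm replicate 1, one of the 3 libraries that went against their label at Tet1.

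Over all diets the Grhl3 body had 65.4% ± 2.76 (SD, n = 9) in WT, 68.6% ± 2.79 (n = 10) in HET and 77.7% ± 3.21 (n = 16) in KO. KO exceeded WT by 12.4 ± 1.34 points (SE), with a quasi-binomial adjusted p of 2.29e-08. Without the 3 libraries the WT mean was 64.8% ± 2.28 (n = 7), the lowest of 15 KO embryos was 74.6%, and the difference was 13.7 points with an adjusted p of 5.35e-12. That comparison leaves out the lowest KO and the highest WT embryo, which favors a wider difference. The groups did not overlap there, and the share of all regions without overlap was not counted. With KO 30 ppm replicate 1 counted as HET, the difference was 13.1 points with an adjusted p of 3.42e-11. KO also exceeded HET, by 8.67 ± 1.15 points (9.42 points without KO 30 ppm replicate 1) with an adjusted p of 3.14e-07 in the same test, and 15 of 16 KO embryos lay above every HET embryo. That was 1 of the 6 member regions tested between KO and HET, against 21.8% of all regions.

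**Figure D2:**
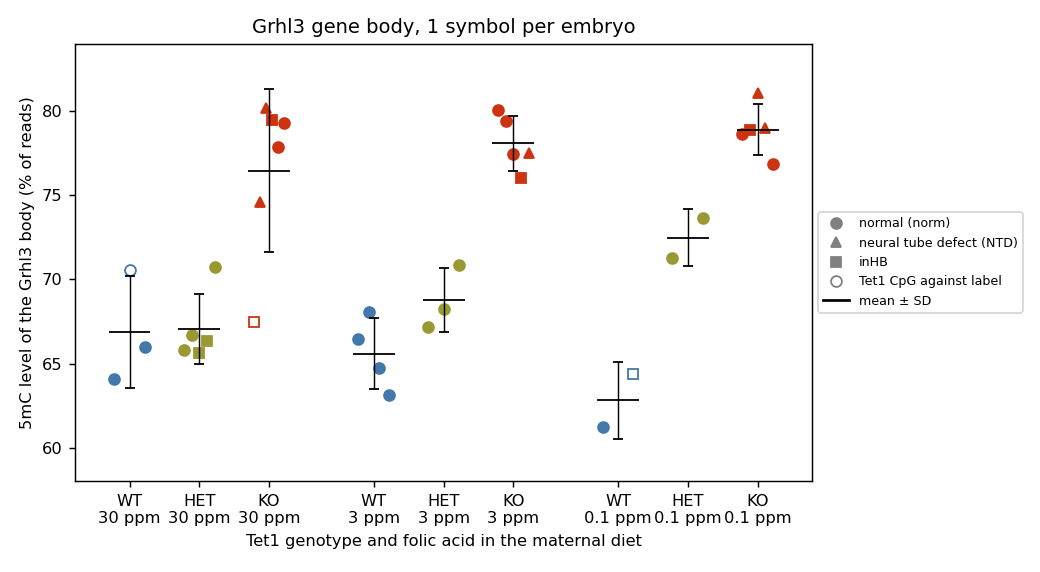
Methylation level (% of reads) of the Grhl3 body in each of 35 embryos, by genotype and folic acid diet (ppm), with bars at the group mean ± SD, symbols for phenotype and open symbols for the 3 libraries against their label. KO embryos lie at 67.4% to 81.1% and WT embryos at 61.2% to 70.5%, the lowest KO and the highest WT embryo being open symbols on the 30 ppm diet.

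The other tested regions moved less. The Alx1 body, of a homeobox factor of the frontonasal mesenchyme, had 14.5% ± 2.83 in WT and 17.8% ± 2.74 in KO, a difference of 3.39 ± 1.13 points with an adjusted p of 0.00703, under the 5-point minimum. In WT it ranged from 10.0% through a median of 14.2% to 19.8%, and in KO from 13.2% through 18.5% to 22.8%, so that the groups overlapped and 3 of 16 KO levels exceeded all WT levels. The Cecr2 body had 86.4% ± 3.03 in WT and 89.1% ± 1.64 in KO, 2.63 ± 0.885 points higher with an adjusted p of 0.0362, also under the minimum. The Pax3 body differed by 2.07 ± 1.12 points (adjusted p 0.251), the Grhl2 body by 1.99 ± 1.57 points (adjusted p 0.437) and the Grhl3 3′ flank by -0.106 ± 1.38 points (adjusted p 0.835), none of which passed the quasi-binomial test with all libraries. Without the 3 libraries against their label the Pax3 body was at 3.52 ± 1.08 points and passed the p threshold of that test (adjusted p 0.0266), still under the 5-point minimum, while the Cecr2 body, at 2.88 ± 1.06 points, no longer passed it (adjusted p 0.0514). The 3′ flank was then at 0.0836 points. Grhl2 and Grhl3 encode related factors, and KO minus WT was 1.99 points in the Grhl2 body and 12.4 points in the Grhl3 body. These bodies average different CpGs. Over promoter, body and flank, 5 Grhl2 CpGs (4.39%) lay between 10% and 80% in HET embryos. Their median difference was 6.34 points. At Grhl3 20 CpGs (32.8%) lay there, with a median of 16.8 points. In Alx1 44 CpGs (89.8%) lay under 10%. The contrast between Grhl2 and Grhl3 was not tested, nor was how far it follows from the CpGs averaged.

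The regions left out for their small spread were fitted in an alternative without that filter. KO exceeded WT by 1.41 ± 0.464 points at the Alx1 promoter (1.28% to 2.65%, adjusted p 0.00259) and by 0.388 ± 0.128 points in the Zic5 body (0.887% to 1.25%, adjusted p 0.00787). Both passed the p threshold of the quasi-binomial test, and both were under the 5-point minimum. The other 12 of the 14 did not pass it, with the Tfap2a body lowest at an adjusted p of 0.116. The share of all 28056 regions of this fit that passed is not given here, so these counts have no background to be read against. At the promoters of Zic2, Cecr2 and Cited2 the differences were 0.011, -0.0014 and -0.0527 points.

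Within diets the Grhl3 body was called on each, but on 30 ppm the call depended on the processing. On 30 ppm KO exceeded WT by 9.60 ± 3.16 points (76.5% ± 4.85 against 66.9% ± 3.33, adjusted p 0.0487 by the quasi-binomial test, 5 of 6 KO levels exceeding all WT levels). That was 1 of 5 member regions, against 6.82% of all regions. With the libraries against their label left out, 5 KO and 2 WT embryos remained. The difference was then 13.2 points with an adjusted p of 3.67e-05 in the same test. This too leaves out the lowest KO and the highest WT embryo, which favors a wider difference. The number of regions of all genes called on this diet also moved with these libraries, from 916 of 13424 to 4654 of 13300 without them. The 30 ppm call was lost in 7 of the fits that left out 1 embryo, namely without KO replicates 2, 3, 4, 5 or 6 or WT replicates 1 or 3. It was also lost with CpGs chosen in the compared libraries only (5.21 points, adjusted p 0.219), with litter as a block (9.10 points, adjusted p 0.0785), with sex as a covariate (8.93 points, adjusted p 0.097), without the SD minimum (adjusted p 0.0633) and with limma (adjusted p 0.101).

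On 3 ppm KO exceeded WT at the Grhl3 body by 12.5 ± 1.25 points (78.1% ± 1.64 against 65.6% ± 2.14, adjusted p 9.3e-06, 5 of 5 above every WT embryo). The Alx1 body was also called on this diet, the WT embryos having 10.0%, 13.2%, 14.2% and 19.8% and the KO embryos 16.9%, 18.6%, 18.8%, 19.8% and 22.8%. The groups overlapped, with 2 of 5 KO levels exceeding all WT levels, and the difference was 5.10 ± 2.10 points with a quasi-binomial adjusted p of 0.0279. Without 1 embryo the Alx1 difference ranged from 3.67 to 6.93 points and the call was lost in 6 of 9 such fits, those without KO replicates 3, 4 or 5 or WT replicates 1, 2 or 3. The Alx1 call was also lost with litter as a block (4.998 points), with sex as a covariate (4.79 points) and with CpGs chosen in the compared libraries only (4.86 points), each under the 5-point minimum, and with limma (adjusted p 0.0907). The 2 calls were among 7 member regions, against 35.24% of all regions.

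On 0.1 ppm the Grhl3 body had 78.9% ± 1.51 in 5 KO embryos and 62.8% ± 2.27 in 2 WT embryos, a difference of 16.1 ± 1.41 points with a quasi-binomial adjusted p of 1.26e-04, and 5 of 5 KO embryos lay above both WT embryos. It was 1 of 5 member regions called, against 25.7% of all regions. WT replicate 2, which went against its label, is 1 of the 2 WT embryos. Without it the difference was 17.7 points, and that of the Pax3 body 5.39 points, with a single WT embryo left. The spread then comes from the KO embryos and, by moderation, from other regions. Pax3, the gene mutated in Splotch mice, had body levels of 20.1% ± 4.18 in the 2 WT and 22.6% ± 2.20 in the 5 KO embryos with both WT embryos kept.

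Tests over 1 kb tiles placed the Grhl3 difference within the gene. Tile calls required at least 10 points and an adjusted p under 0.05. Of 17 member tiles in 7 genes 3 were called, all higher in KO and all in Grhl3, against 14.3% of 50879 tiles. The largest difference was at chr4:135552001-135553000, its centre 21.1 kb from the gene start, where 3 CpGs lay in coding exon 10 and 2 in intron 9. There the WT embryos had a lowest level of 31.6%, a median of 36.9% and a highest of 55.6%, the HET embryos 32.6%, 43.1% and 61.8%, and the KO embryos 39.2%, 67.8% and 91.4%, on 35 to 327 reads. The groups overlapped, with 13 of 16 KO levels exceeding all WT levels. Means were 39.5% ± 7.32 in WT and 65.9% ± 12.9 in KO, a difference of 26.1 ± 4.56 points with a quasi-binomial adjusted p of 3.61e-07.

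The other called tiles lay in intron 1. At chr4:135567001-135568000, 6.1 kb from the start, 7 CpGs had 54.801%, 61.1% and 67.8% as the lowest, median and highest level in WT and 65.2%, 78.2% and 88.7% in KO. All but 1 KO embryo lay above every WT embryo, and the difference was 16.9 ± 2.17 points with a quasi-binomial adjusted p of 1.1e-08. At chr4:135565001-135566000, 8.1 kb from the start, 8 CpGs had 65.0%, 74.4% and 80.1% in WT and 73.6%, 86.7% and 90.7% in KO, 10.8 ± 2.18 points apart with an adjusted p of 1.99e-05. The CpG of that tile with the largest difference, at 135565597 (68.3% in WT and 86.6% in KO), lies outside the printed stretch. Without the 3 libraries that went against their label, the differences in the tiles at 21.1, 6.1 and 8.1 kb were 25.9, 19.1 and 11.01 points, and all 3 were called. With CpGs of at least 10 reads only the tile at 6.1 kb was called (19.0 points), the tile at 8.1 kb being at 9.02 points, under the 10-point minimum, and the tile at 21.1 kb having too few CpGs to be tested. The remaining 3 Grhl3 tiles had high levels in every genotype. At 12.1 kb in intron 2, at 31.1 kb in the 3′UTR and at 32.1 kb after the gene end, WT means were 92.7%, 89.4% and 93.1% and the KO minus WT differences 2.20, 0.916 and -0.106 points, none called.

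Between KO and HET the tiles at 21.1 kb and 6.1 kb were called, at 19.0 ± 3.95 points (adjusted p 9.19e-05) and 11.8 ± 1.93 points (adjusted p 3.86e-06) by the quasi-binomial test. The tile at 8.1 kb, at 7.26 ± 1.94 points (adjusted p 5.03e-04), was under the 10-point minimum. The 2 calls were among 17 member tiles, against 8.64% of all tiles.

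**Figure D3:**
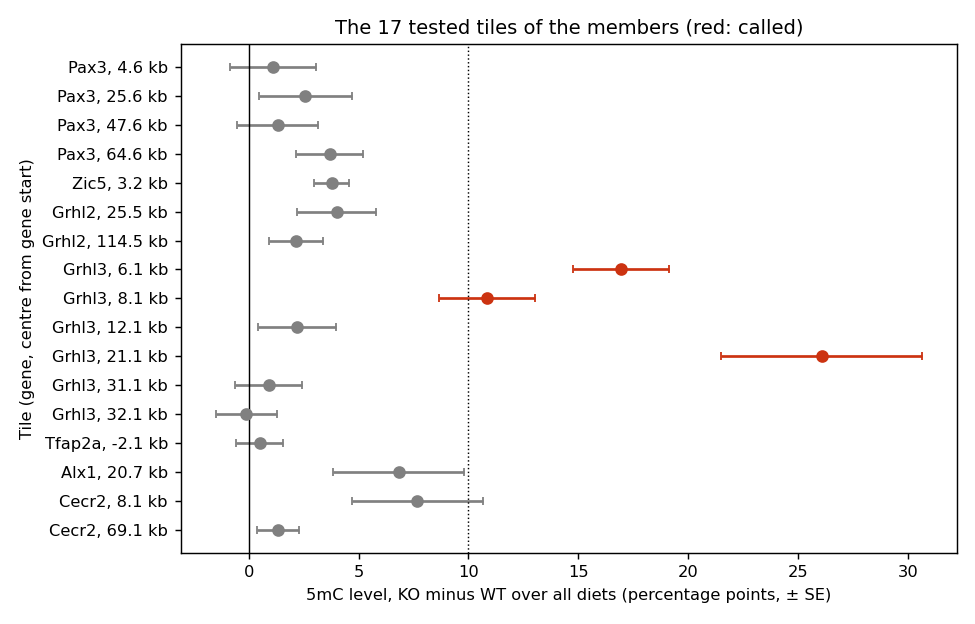
KO minus WT difference in methylation level (percentage points, ± SE) of the 17 tested 1 kb tiles of 7 genes, over all diets, with each tile named by its gene and the distance of its centre from the gene start (kb) and a dotted line at the 10-point minimum. The 3 called tiles (red), at 10.8, 16.9 and 26.1 points, are all in Grhl3.

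Outside Grhl3 no tile reached 10 points. The nearest were an intron tile of Cecr2 (chr6:120674001-120675000, 80.7% in WT and 88.6% in KO, 7.68 ± 2.98 points, adjusted p 0.033 by the quasi-binomial test) and a coding-exon tile of Alx1 (chr10:103009001-103010000, 67.7% in WT and 74.5% in KO, 6.82 ± 2.97 points, adjusted p 0.0122). Among the 4 Pax3 tiles the largest difference was 3.69 ± 1.53 points, at chr1:78132001-78133000. The Grhl2 tiles, at 25.5 and 114 kb, had WT levels of 91.4% and 90.9% and differed by 4.01 and 2.16 points. The only Tfap2a tile, at the outer edge of the upstream 2 kb, had 2.71% in WT and 3.35% in KO. Only 2 of its CpGs lie within that 2 kb, so this level also takes in CpGs farther upstream.

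Zic5, a zinc-finger gene arranged head to head with Zic2, had a tile of 13 intron CpGs at chr14:122462001-122463000 with a low level and a small difference. WT embryos had a lowest of 2.29%, a median of 3.57% and a highest of 6.59%, HET embryos 1.72%, 3.94% and 5.62%, and KO embryos 4.92%, 7.55% and 11.47%. KO exceeded WT by 3.78 ± 0.79 points, with a quasi-binomial adjusted p of 1.87e-05 and 12 of 16 KO levels exceeding all WT levels. KO exceeded HET by 4.27 ± 0.683 points, with an adjusted p of 3.01e-06 and 14 of 16 above every HET embryo. In both comparisons the difference was under the 10-point minimum, so the tile was not called. Tiles were tested only where the SD over the compared libraries was at least 2 points. The higher KO levels add to that SD, so the tile entered in part through the difference that was then tested. No HET against WT test of this tile is given here.

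The Zic5 difference was uneven along the tile. The 4 CpGs printed above as the Zic5 pair's first sequence, at positions 122462216 to 122462250, had 6.39% ± 1.99 in WT (3.29% to 9.59%), 6.84% ± 3.16 in HET and 17.7% ± 5.53 in KO (9.33% to 30.6%), on 26 to 385 reads. All but 1 of the 16 KO levels exceeded those of all WT embryos at these 4 CpGs. The other 9 CpGs, at 122462908 to 122462996, had 2.44% in WT, 2.43% in HET and 3.43% in KO. This division was chosen after the values were seen and was not tested.

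**Figure D4:**
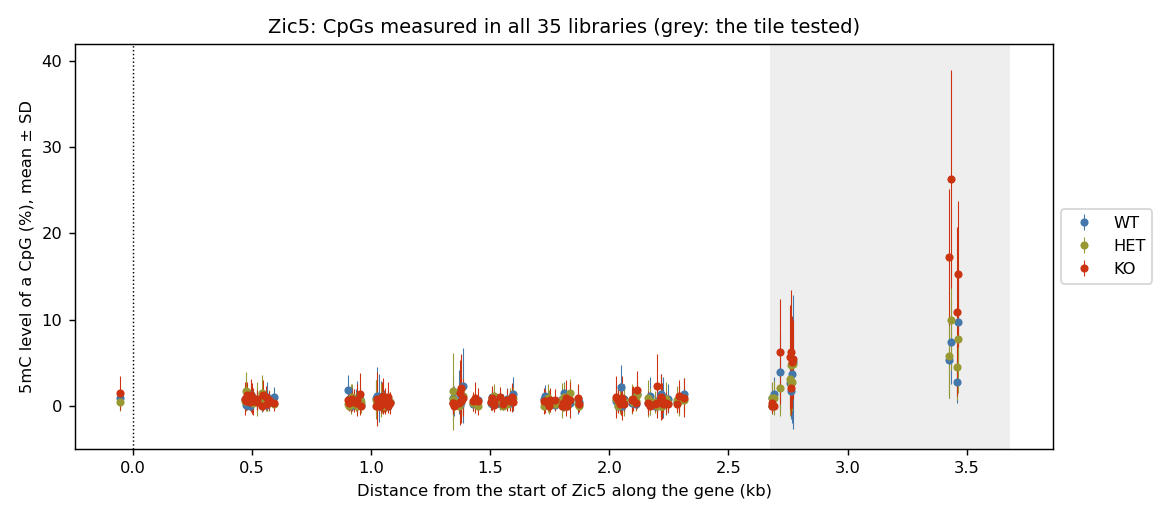
Mean methylation level (%) ± SD over embryos of each measured Zic5 CpG against its distance from the gene start (kb), by genotype, with the 13-CpG tile in grey. The 4 CpGs near 3.43 kb together had 17.7% in KO and 6.39% in WT, and the other 9 of the tile 3.43% and 2.44%.

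Single CpGs are given as a description, since they were picked by their values. Of the 1009 member CpGs 21 (2.08%) had a KO mean at least 15 points above the WT mean, against 4.15% of all autosomal CpGs, and 0 were lower by as much, against 0.0026% of all. In Grhl3 there were 14 of the 21. These included all 5 CpGs of the exon 10 and intron 9 stretch (WT 38.5% to 40.9%, KO 61.4% to 67.3%) and position 135567113 in intron 1 (30.9% to 55.9%). Position 135575086, 1.46 kb before the gene start, went from 55.0% to 76.9%. It lies in the 21-CpG Grhl3 promoter, where the 19 CpGs from 0.053 kb before to 0.27 kb after the start had means of at most 2.43% in WT and 3.73% in KO and the other 2 CpGs, both upstream, means of 55.0% and 90.6% in WT.

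**Figure D5:**
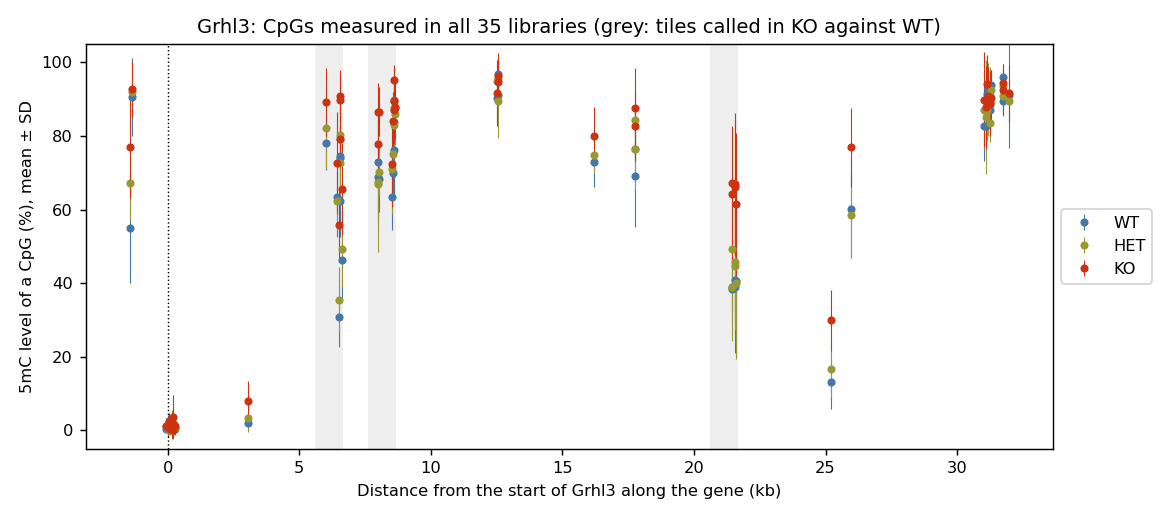
Mean methylation level (%) ± SD over embryos of each measured Grhl3 CpG against its distance from the gene start (kb), by genotype, with the called tiles in grey. The 19 CpGs around the start are at most 3.73% in KO, the 5 in the grey tile farthest from the start are 38.5% to 40.9% in WT and 61.4% to 67.3% in KO, and those at the far end of the gene are high in every genotype.

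The other 7 CpGs were spread over 5 genes. Alx1 had a CpG at 103001085, 29.1 kb from the start, at 57.0% in WT and 79.5% in KO, and a CpG 1.05 kb before its start at 5.68% and 21.9%. The latter and its neighbor, 4.19% in WT and 13.8% in KO, stood beside 24 CpGs near the Alx1 start that had KO means of at most 3.80%. Twist1, a basic helix-loop-helix factor of the cranial mesenchyme, had a single usable CpG outside its promoter, at 33961409 in the 3′ flank. It had 16.2% ± 7.89 in WT (6.45% to 27.3%), 12.2% ± 3.82 in HET (5.00% to 16.1%) and 37.4% ± 13.0 in KO (15.4% to 57.7%), on 16 to 153 reads. The Zic5 CpG lies in the intron stretch described above, at 7.43% in WT and 26.3% in KO. Grhl2 had a pair 9.4 kb from its start, at 33.6% and 43.69% in WT and 50.7% and 61.8% in KO, and Pax3 a CpG 13.9 kb from its start at 36.66% and 52.6%.

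Few of the members' CpGs were partly methylated, and most of those were higher in KO, as were most such CpGs of all genes. By their mean level in HET embryos, which entered neither KO nor WT means, 889 of the 1009 CpGs (88.1%) lay under 10%, 40 (3.96%) between 10% and 80% and 80 (7.93%) at 80% or more. The shares over all autosomal CpGs were 60.9%, 10.6% and 28.4%. Median KO minus WT differences were 0.0316, 13.7 and 1.91 points in the 3 classes, against 0.133, 10.2 and 1.67 points over all CpGs. Of the 40 in the middle class 38 (95%) were higher in KO, against 89826 of 97886 (91.8%) over all autosomal CpGs. Grhl3 held 20 of the 40, all higher in KO with a median of 16.8 points, and the other genes held 20, of which 18 were higher with a median of 6.29 points. Zic2, Zic5 and Cited2 had all their measured CpGs under 10%.

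In HET brains no member region was called over all diets. Of 6 member regions 0 were called in HET against WT over all diets, against 0.319% of 11907 regions, of which 1719 (14.4%) had an unadjusted p under 0.05. The quasi-binomial test gave 1 member region with an unadjusted p under 0.05, the Grhl3 body, at 3.37 ± 1.36 points (p 0.0401, adjusted p 0.315), and limma called 0 as well, as did the quasi-binomial fit without the libraries against their label. With CpGs of at least 10 reads the Grhl3 body was called, at 6.90 ± 1.49 points with a quasi-binomial adjusted p of 0.0395, and without the libraries against their label it was at 4.16 ± 1.31 points (adjusted p 0.0477), under the 5-point minimum. All 10 HET embryos lay above the WT mean there and 4 lay above every WT embryo.

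Within diets, 0 member regions were called in HET against WT on 30 ppm (0% of all regions called), on 3 ppm (0.198%) and on 0.1 ppm (0.304%). Unadjusted p-values under 0.05 came from 0, 0 and 1 of the 6, 4 and 4 member regions tested, against 3.95%, 11.4% and 8% of all regions. The Grhl3 body differed by 0.18 ± 1.88 points on 30 ppm (adjusted p 1; 2.02 ± 1.65 points and adjusted p 0.566 without WT replicate 2, the library against its label), by 3.17 ± 1.56 points on 3 ppm (adjusted p 0.565) and by 9.67 ± 2.00 points on 0.1 ppm (p 0.00388, adjusted p 0.236) by the quasi-binomial test. On 0.1 ppm both HET embryos, at 71.3% and 73.7%, lay above both WT embryos, at 61.2% and 64.4%, and the latter WT embryo is the library against its label. Without that library the difference from the single WT embryo left was 11.3 points, not called. The spread between embryos at this region then comes from the 2 HET embryos alone. The dispersion in the test is moderated toward that of other regions, with a prior of 39.1 degrees of freedom when all libraries are kept. Whether the HET difference itself changed with diet was not tested. Of 16 member tiles 0 were called in HET, against 0.305% of all tiles. Of 47178 tiles tested 6483 (13.7%) had an unadjusted p under 0.05. Among members these were 2 Grhl3 tiles, at 6.1 kb (4.97 ± 1.79 points, adjusted p 0.114) and 21.1 kb (6.49 ± 3.66 points, adjusted p 0.25).

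Diet was compared within each genotype, and no member region was called. Diet was given to the dam, with 4 litters per diet, and some litters gave more than 1 embryo of a genotype. Embryos entered as separate units and litter lies within diet, so a litter term cannot be fitted and the p-values can be too small. In WT, 30 against 3 ppm called 0% of all regions, and the member with the lowest p was the Grhl2 body at -3.83 points (p 0.0779, adjusted p 1 in the quasi-binomial test). Without WT 30 ppm replicate 2, the library against its label, it was at -6.26 ± 2.07 points (p 0.00377, adjusted p 0.99), not called. In HET the same diets called 0%, with the Grhl3 body lowest at -1.72 points (adjusted p 0.907). In KO they called 0%, and 2 member bodies had unadjusted p-values under 0.05, Pax3 at -2.82 points and Alx1 at -3.57 points (both adjusted p 0.621). Without KO 30 ppm replicate 1 these were at -2.77 points (p 0.0367) and -3.19 points (p 0.0744). The low-folate diet, 0.1 against 3 ppm, called 0% of all regions in WT, where the Grhl3 body was lowest at -2.79 points (adjusted p 0.998), or -4.39 points (adjusted p 0.959) with the 1 WT embryo left on 0.1 ppm without the library against its label. In HET it called 0.112%, with the Grhl3 promoter lowest among members at 3.13 points (p 0.0374, adjusted p 0.995), and in KO 0%, with the Grhl3 promoter at 0.766 points (adjusted p 1). Over all regions, unadjusted p-values under 0.05 came from 135, 585 and 1008 regions for 30 against 3 ppm in WT, HET and KO, and from 439, 456 and 566 for 0.1 against 3 ppm. Limma called 0 member regions in each of these comparisons.

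Whether the KO effect depended on diet was tested with an interaction term. For 30 against 3 ppm 0 member regions were called, 0% of all regions being called and 843 having an unadjusted p under 0.05. The Alx1 body was lowest among members at -3.64 points (p 0.103, adjusted p 0.831 in the quasi-binomial test), and the Grhl3 body was at -2.89 points (adjusted p 0.908). Without the libraries against their label the Grhl3 value turned to 0.748 ± 2.10 points (adjusted p 0.999) and the Alx1 value was -2.52 points. For 0.1 against 3 ppm 0 member regions were called, again 0% of all regions, with 622 at an unadjusted p under 0.05. The Grhl3 body was lowest there, at 3.60 points (p 0.0735, adjusted p 0.991), and at 5.20 ± 2.25 points (p 0.0458, adjusted p 0.997) without the library against its label, which leaves 1 WT embryo on 0.1 ppm. With all libraries no member region had an unadjusted p under 0.05 in either test, and limma called 0 in both. The KO effects on Grhl3 were 9.60, 12.5 and 16.1 points on 30, 3 and 0.1 ppm. Those on 30 and 0.1 ppm are thus not shown to differ from that on 3 ppm, and 30 against 0.1 ppm was not tested.

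Among KO embryos the neural tube phenotype was compared with diet as a covariate. For NTD against norm 0 member regions were called, 0% of all regions being called and 543 having an unadjusted p under 0.05, and no member among these. The member with the lowest p was the Grhl2 body, 40.8% ± 4.55 in 5 NTD and 44.2% ± 4.11 in 7 norm embryos, at -2.79 ± 2.46 points (p 0.153, adjusted p 0.997 in the quasi-binomial test). For inHB against norm 0 member regions were called, 0% of all regions again, with 738 at an unadjusted p under 0.05 and no member among them. The Grhl3 body was lowest there, at -2.72 ± 2.36 points (p 0.156, adjusted p 0.824). Limma called 0 member regions in both.

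The Grhl3 body varied too little between NTD and norm KO embryos to enter the first of these tests. It had 78.5% ± 1.17 in 7 norm, 78.5% ± 2.56 in 5 NTD and 75.4% ± 5.54 in 4 inHB embryos, the 4 inHB embryos having 67.4% (KO 30 ppm replicate 1), 76.0%, 78.9% and 79.5%. Without KO 30 ppm replicate 1 the other 3 inHB embryos had a mean of 78.1% and were at -0.42 ± 1.06 points against norm, with too little spread to be tested. The tile at 21.1 kb had means of 71.6%, 58.6% and 65.0% in the 3 phenotypes, and the Zic5 tile 6.90%, 9.11% and 7.77%. Without KO 30 ppm replicate 1 the inHB means were 73.6% and 8.69% (n = 3), the former above rather than below the norm mean. Differences between phenotypes in these 2 tiles were not tested.

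Lists of related genes give the setting of the member counts. Among 14 family relatives of the members, 10 regions in 6 genes were tested between KO and WT, and 6 were called, all higher, in 5 genes. The largest differences were in the 3′ flank of Tfap2c (9.06% to 32.9%, 23.8 points), the body (61.2% to 77.3%, 16.2 points) and promoter (5.96% to 16.1%, 10.1 points) of Twist2 and the body of Tfap2e (17.2% to 25.2%, 8.26 points), with adjusted p from 4.27e-09 to 3.61e-07 in the quasi-binomial test. The median difference over the 10 regions was 5.87 points. Among 32 other genes whose loss is known to affect neural tube closure, 22 regions in 20 genes were tested and 6 were called, all higher, with a median of 3.77 points. The largest were in Casp9 (11.47 points), Gadd45a (8.64 points), Phactr4 (8.16 points) and Map3k4 (6.73 points). Against the background of 33.3%, 1 of 6 member regions was called, as were 6 of 10 regions of the relatives and 6 of 22 of the other closure genes, and the differences between these shares were not tested.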

How the data were processed

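The authors trimmed reads (Trim Galore 0.6.10), mapped them to mm10 with Bismark (0.24.1), removed duplicates with UMI-tools and deposited, per library and CpG, the read count (coverage) and the fraction of methylated reads, as the submitters' processing notes and the study's methods describe. Methylated counts were recovered as coverage times fraction. Positions are deposited from 0, and 1 was added, after which all 3493603 autosomal positions checked were the C of a CG. Genes are GENCODE vM21 records and sequences RefSeq GRCm38.p6. How the calls of the 2 strands were joined is not given in the sources used here.

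CpGs with at least 5 reads in all 35 libraries were used. Methylated and unmethylated reads were summed per region (at least 3 CpGs, and an SD of at least 2 points over the libraries compared) and tested with a quasi-binomial logistic model with moderated dispersion, as in limma, a two-sided F test and Benjamini-Hochberg adjustment over all regions or tiles of a comparison. Differences are unweighted differences of embryo levels from a linear model with the same covariates. Diet was a covariate where diets were pooled. Python 3.11.15, NumPy 2.4.6, SciPy 1.17.1, R 4.3.3 and limma 3.58.1 were used, and the code was tested on simulated data. Intervals on reads cover counting error only. None of the 61 pairs of libraries of a group held identical values. The number of columns of per-sample values left out was 0, and the deposited lists of differentially methylated regions, which hold the authors' own comparisons, were not used.

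The members, the other gene lists and the tests were chosen with earlier results of these data known. Named regions are those called in a comparison or, where none was called, the member with the lowest p. Named tiles are the called tiles with the largest differences, and each other list gives up to 4 genes. Other regions, tiles and single CpGs were named after their values were seen. Alternatives were 10 reads per CpG, CpGs of the compared libraries only, no SD minimum, other difference minimums, limma on logit mean levels, sex or litter as a term, other promoter bounds, the omitted HET library included, the 3 libraries against their label left out, KO 30 ppm replicate 1 counted as HET, and, except in the genotype comparisons over all diets, each embryo left out in turn.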

Additional observations from a re-analysis of the deposited data

Results flagged for a closer look

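Levels of the named regions and tiles were examined for single embryos far from the others of their group, by the gap to the nearest embryo relative to the range. Of 90 groups of values examined 6 stood out, and chance gives about 1 in 20. In the Cecr2 body WT 3 ppm replicate 3 had 79.1%, against 87.7% to 88.4% in the other WT embryos of that diet, and the same 79.1% stood apart among all WT embryos, where the next lowest had 84.8%. In the Grhl2 body WT 30 ppm replicate 3 had 33.9%, the lowest of 9 WT embryos, whose next lowest had 38.9%. In the Grhl3 body HET 30 ppm replicate 5 had 70.7%, against 65.6% to 66.7% in the other HET embryos of that diet. In the Grhl3 tile at 21.1 kb KO 30 ppm replicate 1 had 39.2%, against 71.4% to 77.3% in the other inHB KO embryos. That library also went against its label at Tet1. In the Grhl3 tile at 6.1 kb KO 3 ppm replicate 5 had 88.7%, against 74.7% to 77.7% in the other KO embryos of that diet.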

How the results depend on the processing

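Apart from the fits that left out 1 embryo, 168 recomputed counts of calls stayed within 1.5 times the reported count and 20 did not. Most of these counts came from comparisons with a reported count of 0, where at most 0.319% of all regions or tiles were called. A count that stayed at 0 there says little about how firm the results are. No called difference of a named region or tile changed direction. Of values not called, some turned without the 3 libraries against their label. Among these were the Grhl3 interaction for 30 against 3 ppm (-2.89 to 0.748 points) and the Grhl3 3′ flank between KO and WT (-0.106 to 0.0836 points). On 0.1 ppm, with a single WT embryo left, that flank went from 1.15 to -0.831 points. The list is not complete, and under the other alternatives such values were not followed. The Grhl3 body over all diets was called in every alternative run, at 12.3 to 15.9 points between KO and WT. Embryos were not left out in turn in the genotype comparisons over all diets. On 30 ppm the count of 1 fell to 0 with CpGs of the compared libraries only, with no SD minimum, with a 10-point minimum, with limma, with sex as a covariate and with litter as a block. On 3 ppm the count of 2 fell to 1, the Grhl3 body, with CpGs of the compared libraries only, a 10-point minimum, limma, sex and litter, the Alx1 body being lost. On 0.1 ppm the count of 1 became 2 (Pax3 and Grhl3 bodies) without the libraries against their label. The Grhl3 body, not called in HET against WT, gave a count of 1 at 10 reads per CpG over all diets and with sex as a covariate on 0.1 ppm, where the library against its label is the only female embryo, so that 2 HET embryos were in effect set against 1 WT embryo (11.3 points, as in the fit without that library, which had an adjusted p of 0.0635 and no call). Between KO and HET the count fell to 0 with a 10-point minimum. Tiles called between KO and WT numbered 1 at 10 reads per CpG (6.1 kb), 5 with a 5-point minimum (adding Cecr2 and Alx1) and 1 with a 20-point minimum (21.1 kb), and between KO and HET 1 at 10 reads (6.1 kb) and 0 with 20 points. Apart from the 30 ppm fit without the libraries against their label, the shares of all regions or tiles called under these settings are not given. The changed counts therefore have no background and are not read as particular to the members. Fewer CpGs and tiles could be used at 10 reads; other causes were not tested. Leaving out 1 embryo gave counts of 0 to 1 on 30 ppm, 1 to 2 on 3 ppm and 1 to 2 on 0.1 ppm, and 0 throughout in the diet, HET within-diet and interaction comparisons. Where WT replicate 2 of 0.1 ppm was left out, the lone WT embryo is assumed to vary like the other embryos of the fit (KO, HET or 3 ppm WT, by comparison). Replicate numbers were given in accession order and pair no embryos, so litter, taken from the titles, was the block used. Among the called tiles the one at 21.1 kb had the fewest reads, 35 to 327 per library.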
